A study of Homo sapiens with 12 samples.

Results

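The 9 genes described here encode enzymes that make, salvage, break down or clean the building blocks of DNA. They were taken by name as RRM1, RRM2, RRM2B, TYMS, TK1, DUT, DCK, SAMHD1 and DCTPP1, and all 9 were among the 16676 genes listed in the deposited table. Their RNA was measured by strand-specific RNA-seq of total RNA in HCT116, a widely used human colon cancer cell line that carries wild-type p53. The cells lacked the long non-coding RNA SPARCLE (SPARCLE KO), over-expressed it (SPARCLE OE) or were wild type (WT). Each kind was kept for 48 h in medium with 1 µM doxorubicin (dox) or in regular medium (control), and each of the 6 groups held 2 biological replicates, a and b. Doxorubicin is a chemotherapy drug that breaks DNA by poisoning topoisomerase II. The labels name no clones and do not say how the KO or the OE cells were made, so p-values measure only the spread between these replicates.

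DNA synthesis needs the 4 deoxynucleoside triphosphates (dNTPs). Ribonucleotide reductase makes their precursors from ribonucleotides with a large subunit, RRM1, and a small subunit, which is RRM2 in cells in S phase or RRM2B (p53R2), a transcriptional target of p53, in resting and damaged cells. TYMS makes thymidylate from the dUMP that DUT supplies, TK1 and DCK salvage thymidine and deoxycytidine, SAMHD1 breaks dNTPs down, and DCTPP1 hydrolyses dCTP and its modified forms. E2F factors and the cell cycle are known to control RRM1, RRM2, TYMS, TK1 and DUT in cultured cells.

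With doxorubicin the RNAs of the 2 small subunits of ribonucleotide reductase moved in opposite directions. RRM2 averaged 2.41 ± 2.06 TPM (transcripts per 1000000, a level scaled by gene length and library total) with doxorubicin and 21.6 ± 7.62 TPM in control, while RRM2B averaged 160 ± 35.3 TPM with doxorubicin and 42.2 ± 4.96 TPM in control (SD, n = 6 libraries each, over KO, OE and WT). RRM1, TK1 and DCK were lower with doxorubicin and DCTPP1 was higher, without overlap between the 6 doxorubicin and the 6 control libraries. TYMS and SAMHD1 were higher on average with overlap, and DUT did not pass the test.

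The stretches before the transcription starts of RRM2 and TK1 are shown because both RNAs were lower with doxorubicin in every kind of cells and both stretches hold repeated CCAAT boxes, a motif common in promoters of genes of the cell cycle. Each is the 250 bases before a RefSeq start (GRCh38.p14), 5′ to 3′ on the gene's strand, for RRM2 chr2:10122489-10122738 (plus strand) and for TK1 chr17:78187053-78187302 (minus strand), with the letters CCAAT, or ATTGG where the box lies on the other strand, in capitals.
RRM2: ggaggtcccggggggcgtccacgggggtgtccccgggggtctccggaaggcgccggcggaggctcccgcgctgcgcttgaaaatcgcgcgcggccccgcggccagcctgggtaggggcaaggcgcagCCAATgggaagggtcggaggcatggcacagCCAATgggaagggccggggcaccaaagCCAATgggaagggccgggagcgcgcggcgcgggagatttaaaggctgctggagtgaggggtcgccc
TK1: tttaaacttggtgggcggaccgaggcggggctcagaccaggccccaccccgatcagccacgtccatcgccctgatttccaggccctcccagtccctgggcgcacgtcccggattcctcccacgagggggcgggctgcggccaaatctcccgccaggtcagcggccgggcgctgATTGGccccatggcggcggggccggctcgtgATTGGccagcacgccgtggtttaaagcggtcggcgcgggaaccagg

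The RRM2 window holds 3 CCAAT boxes, whose first bases lie at -123, -93 and -66 from the start, and 2.93% of all 35116 RefSeq windows of this length hold 3 or more on either strand. The TK1 window holds 2, with first bases at -77 and -46, and 9.53% of all windows hold 2 or more. RefSeq gives both genes a second start further upstream, whose window holds 1 CCAAT in RRM2 and 0 in TK1. Of the other members, 6 had windows: SAMHD1, which was higher with doxorubicin, holds 2 CCAAT, RRM1 holds 1, and TYMS, DUT, DCK and DCTPP1 hold 0. An E2F site, spelled TTTCGCGC or TTTGGCGC on either strand, was found in 1 of 4 DUT windows and in no other member's, against 0.968% of all windows. Other spellings were not searched, so no member is shown to lack an E2F site. The cell cycle homology element TTTGAA was found once in the RRM1 window and 2 times in that same DUT window. At least 1 is held by 13.3% of all windows and at least 2 by 1.72%, and DUT had 4 windows in which to find it. No motif contains another on either strand, and a match is a description of the sequence.

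The members lie on 9 chromosomes in the build hg38, as annotated in GENCODE v29. RRM1 spans chr11:4094707-4138876 on the plus strand, RRM2 chr2:10120698-10131419 on the plus strand and RRM2B chr8:102204502-102239118 on the minus strand. TYMS spans chr18:657604-673578 on the plus strand, TK1 chr17:78174075-78187233 on the minus strand and DUT chr15:48331011-48343373 on the plus strand. DCK spans chr4:70992538-71030914 on the plus strand, SAMHD1 chr20:36889773-36951901 on the minus strand and DCTPP1 chr16:30423619-30430075 on the minus strand.

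The doxorubicin libraries held 24884674 to 30679573 reads on listed genes, recovered from the TPM values, and the control libraries 12595614 to 18565784. Depth thus differed between the media without overlap, and its part in the doxorubicin differences was not tested. The smallest read count behind a member's value was 64, for RRM2, and the largest 20756, for RRM2B, both in KO dox replicate a. The row read as SPARCLE (MIR34BHG in RefSeq) held 430 and 487 reads in OE dox and 384 and 622 in OE control. Each KO and WT library held 0 to 4 reads there, so its level checked the OE label and could not tell KO from WT. All 8 colon epithelial markers looked up were listed, with VIL1 under 1 TPM everywhere, and their summed level was 2702 to 3343 TPM with doxorubicin and 1012 to 2208 TPM in control. Fibroblast markers were listed for 2 of 7 (2.15 to 7.16 TPM with doxorubicin, 3.118 to 5.78 TPM in control) and endothelial markers for 1 of 4 (under 0.4 TPM). Among 6 leukocyte markers CD68 was the one listed, at 3.83 to 9.42 TPM with doxorubicin and 13.1 to 43.9 TPM in control. PTPRC, CD3E, CD14 and LYZ were not listed, and the part of these marker differences in the results was not tested. Small RNAs held 64.6 to 75.4% of each library's TPM, and the median log2 level of a library differed by -0.28 to 0.27 from the average library.

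RRM2, the S-phase small subunit, varied most. It was measured at 0.707 and 2.30 TPM in KO dox, 0.989 and 0.645 TPM in OE dox and 5.53 and 4.29 TPM in WT dox, against 9.15 and 31.7 TPM in KO control, 17.6 and 24.2 TPM in OE control and 24.5 and 22.3 TPM in WT control (replicates a and b). Every doxorubicin library lay below every control library, the KO and OE libraries lay below the WT libraries with doxorubicin, and KO control a stood lowest among the controls. The mean TPM with doxorubicin was 0.0735 times that of control in KO, 0.0391 times in OE and 0.209 times in WT cells. Over the 12 libraries the highest RRM2 level was 49.2 times the lowest, and for the other members this ratio ran between 1.84 for DUT and 5.94 for RRM2B.

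**Figure D1:**
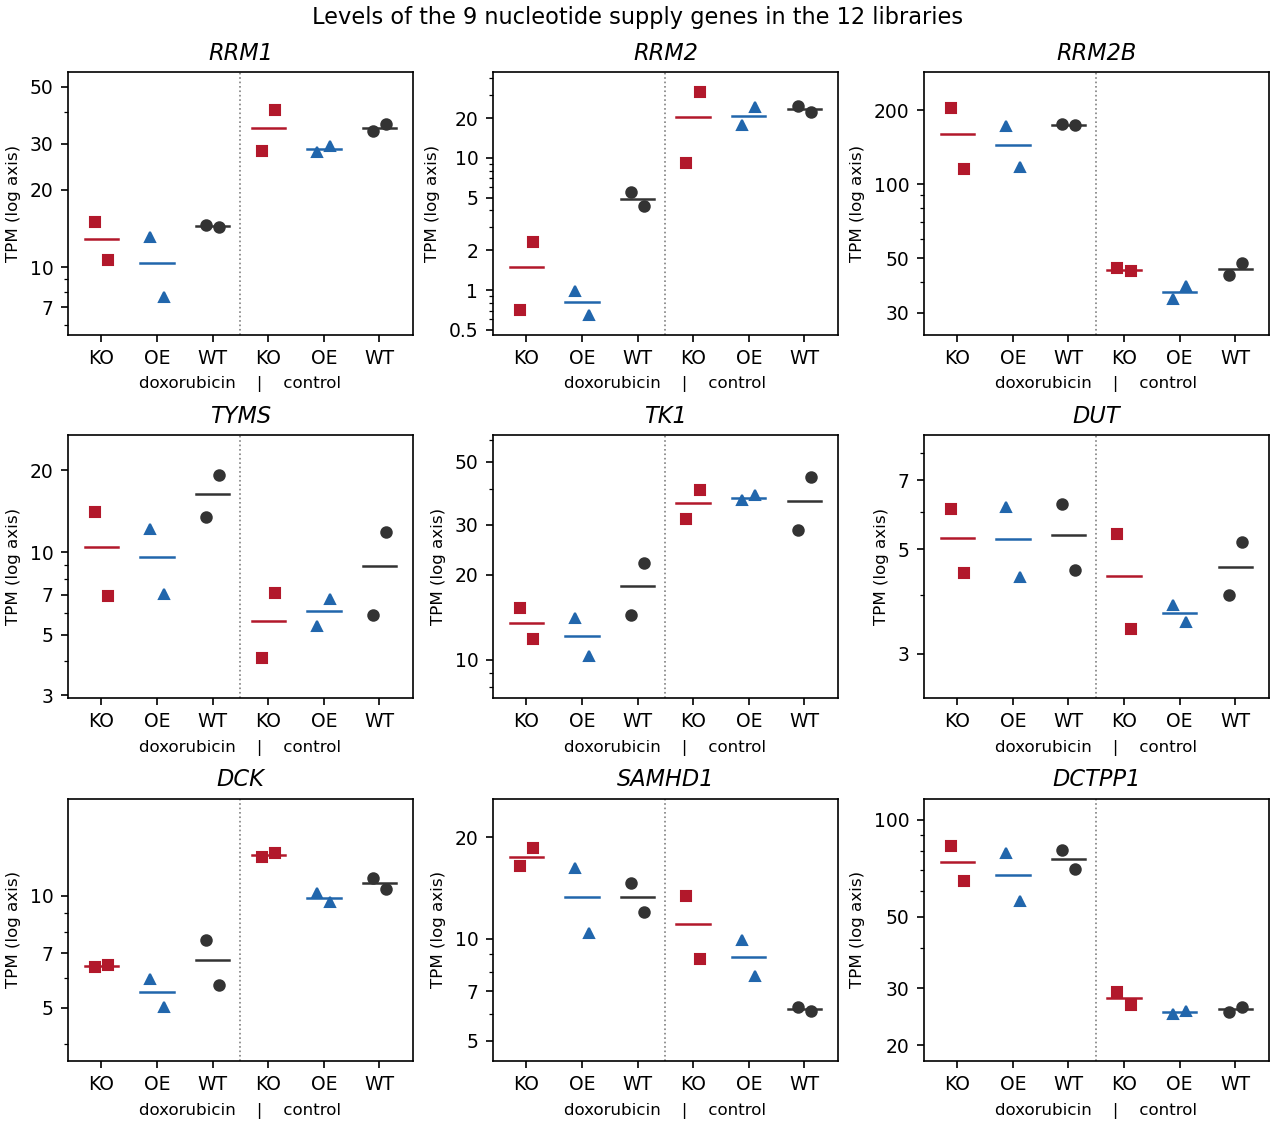
Level of each gene in TPM (log axis, a scale per panel) in the 12 libraries, doxorubicin left and control right of the dotted line. Points are libraries, replicate a left and b right (red squares KO, blue triangles OE, grey circles WT), and lines are means of 2. RRM2 runs between 0.645 and 5.53 TPM with doxorubicin and between 9.15 and 31.7 TPM in control, and RRM2B between 116 and 204 TPM with doxorubicin and between 34.3 and 47.8 TPM in control.

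RRM2B, the damage-inducible small subunit, ran the other way. It was measured at 204 and 116 TPM in KO dox, 172 and 118 TPM in OE dox and 176 and 174 TPM in WT dox, against 45.6 and 44.2 TPM in KO control, 34.3 and 38.6 TPM in OE control and 42.6 and 47.8 TPM in WT control. All doxorubicin libraries lay above all control libraries, and replicate a stood above b in KO dox and OE dox while the WT dox replicates were close. RRM1, the large subunit that both small subunits need, was measured at 15.0 and 10.7 TPM in KO dox, 13.1 and 7.69 TPM in OE dox and 14.6 and 14.3 TPM in WT dox, against 28.3 and 40.6 TPM in KO control, 27.8 and 29.5 TPM in OE control and 33.8 and 35.7 TPM in WT control. It was lower with doxorubicin in each kind of cells, by a smaller factor than RRM2 in each.

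Differences were tested on log2(TPM + 1) with limma, in a fit over 15256 genes and all 12 libraries with Benjamini-Hochberg adjustment. On this scale a fold change of a gene near or below 1 TPM, such as RRM2 with doxorubicin, is understated. A gene was called at an adjusted p under 0.05. In the mean of the KO, OE and WT differences (dox minus control) 4 members were called higher and 4 lower. Over all genes tested 32.2% were called higher and 25.9% lower, so the share of members called, 8 of 9, stands beside a background of 58.0% called either way. The median difference of the 9 members was 0.28 and that of all genes 0.09. The groups of 6 did not overlap for 6 of the 9 members, 2 higher and 4 lower, against 32.0% of all genes (15.7% higher and 16.3% lower).

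RRM2 had a mean difference of -2.86 ± 0.26 (SE) on the log2 scale with an adjusted p of 3.54e-06 (limma), and RRM2B one of 1.87 ± 0.15 with an adjusted p of 1.26e-06. RRM1 had -1.33 ± 0.16 (adjusted p = 2.03e-05, limma). Taken within KO, OE and WT cells, RRM2 differed by -2.94, -3.58 and -2.05, RRM2B by 1.75, 1.94 and 1.93 and RRM1 by -1.35, -1.42 and -1.21. All of these 9 differences were called, and only the RRM1 call in KO cells was lost when 1 library was left out (adjusted p = 0.0583, limma, without KO control b). In bulk RNA, fewer cells in S phase and less RRM2 RNA in each cell cannot be told apart.

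Ratios of TPM between members within a library do not depend on the library's total. The tested log2 ratios hold a pseudocount of 1, so they depend on it somewhat where a level is low. The ratio of RRM2B to RRM2 TPM was 288 and 50.3 in KO dox, 174 and 183 in OE dox and 31.8 and 40.5 in WT dox, against 4.98 and 1.39 in KO control, 1.95 and 1.59 in OE control and 1.74 and 2.14 in WT control. RRM2B stood above RRM2 in all 12 libraries, and every doxorubicin library lay above every control library. The mean within-kind difference of the log2 ratio (pseudocount of 1) was 4.73, with an adjusted p of 0.0123 in a two-sided exact permutation test with 6 against 6 libraries, exchanged within KO, OE and WT, over 4 ratios. The unadjusted p of 0.00926 is the smallest that the possible arrangements can give. RRM2B was higher and RRM2 lower without overlap in each kind of cells, so this p was fixed by their levels and adds no support. The ratio of RRM2 to RRM1 had a median of 0.134 with doxorubicin (lowest 0.0473, highest 0.379) and of 0.677 in control (lowest 0.323, highest 0.822), and these ranges overlapped through KO control a. Its log2 difference was -1.53 (adjusted p = 0.0123, same exact test). Without a pseudocount the log2 differences were 5.46 for RRM2B to RRM2 and -2.16 for RRM2 to RRM1.

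**Figure D2:**
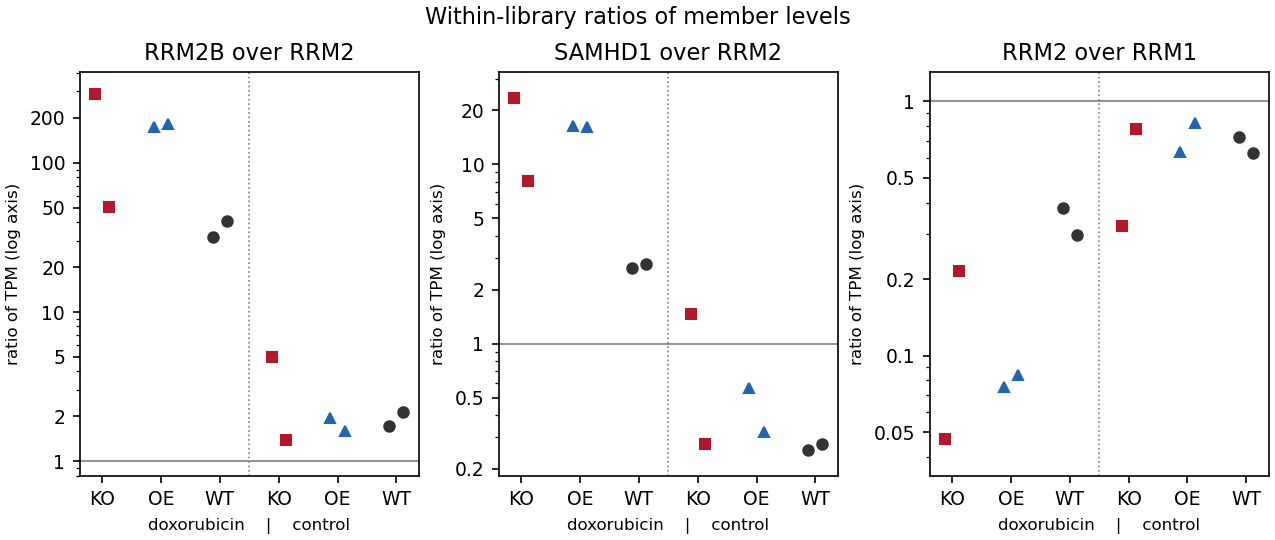
Ratio of 2 levels in TPM within each library (log axis, the grey line marks a ratio of 1), doxorubicin left and control right of the dotted line, with 1 point per library (red squares KO, blue triangles OE, grey circles WT). RRM2B over RRM2 runs between 31.8 and 288 with doxorubicin and between 1.39 and 4.98 in control. SAMHD1 stands above RRM2 in all doxorubicin libraries and in KO control a.

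Thymidylate is made by salvage, with TK1, and de novo, with TYMS, and their RNAs were not tested against each other. TK1, the thymidine kinase of S phase, was measured at 15.2 and 11.8 TPM in KO dox, 14.0 and 10.3 TPM in OE dox and 14.3 and 22.1 TPM in WT dox, against 31.4 and 40.0 TPM in KO control, 36.8 and 38.1 TPM in OE control and 28.8 and 44.3 TPM in WT control. The groups did not overlap in any kind of cells. Its mean difference was -1.29 ± 0.16 (adjusted p = 3.23e-05, limma), with -1.34 in KO, -1.56 in OE and -0.96 in WT cells, all called. The call in KO cells was lost without KO control b (adjusted p = 0.0604, limma), and the call in WT cells without WT control b (difference -0.66, adjusted p = 0.153) or without WT dox a (difference -0.67, adjusted p = 0.175).

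TYMS, thymidylate synthase, was measured at 14.1 and 6.90 TPM in KO dox, 12.2 and 7.02 TPM in OE dox and 13.5 and 19.1 TPM in WT dox, against 4.11 and 7.09 TPM in KO control, 5.39 and 6.77 TPM in OE control and 5.88 and 11.9 TPM in WT control. The doxorubicin and control libraries overlapped, WT replicate b stood highest in each medium, and replicate a stood above b in KO dox and OE dox. The mean difference of 0.72 ± 0.23 was called (adjusted p = 0.0166, limma), and no difference within KO (0.76), OE (0.55) or WT cells (0.86) was. With 1 library left out these values ranged between 0.296 and 1.23 in KO (without KO dox a and b), 0.188 and 0.907 in OE (without OE dox a and b) and 0.403 and 1.31 in WT cells (without WT control a and b). The mean call was lost without WT control a (adjusted p = 0.0574, limma) or without WT dox b (adjusted p = 0.0539). Of the exon bases of TYMS in GENCODE v29, 46.6% are shared with antisense genes, ENOSF1 (listed at 1.43 to 3.34 TPM) and TYMSOS (0.715 to 5.32 TPM). The libraries were stranded, but the strand setting of the authors' counting is not given in the sources used here, so reads of these genes may not have been kept apart.

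DUT, the dUTPase that supplies dUMP and keeps uracil out of DNA, was the flattest member. It was measured at 6.10 and 4.44 TPM in KO dox, 6.15 and 4.36 TPM in OE dox and 6.23 and 4.50 TPM in WT dox, against 5.39 and 3.39 TPM in KO control, 3.81 and 3.51 TPM in OE control and 3.99 and 5.17 TPM in WT control. In each doxorubicin group replicate a lay above b, and the media overlapped. The mean difference was 0.28 ± 0.17 with a 95% interval of -0.09 to 0.64 (adjusted p = 0.176, limma), which leaves room for a change of up to 0.64 log2 units. The ratio of TYMS to DUT differed by 0.45 log2 units between doxorubicin and control, which the exact permutation test over 6 against 6 libraries did not call (adjusted p = 0.157).

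DCK, the deoxycytidine kinase that also salvages deoxyadenosine and deoxyguanosine, was measured at 6.42 and 6.52 TPM in KO dox, 5.99 and 5.04 TPM in OE dox and 7.63 and 5.77 TPM in WT dox, against 12.7 and 13.1 TPM in KO control, 10.2 and 9.61 TPM in OE control and 11.2 and 10.4 TPM in WT control. All doxorubicin libraries lay below all control libraries. The mean difference was -0.76 ± 0.13 (adjusted p = 3.95e-04, limma). Within each kind of cells the call was near the threshold, with -0.90 in KO (adjusted p = 0.0155) and -0.75 in OE cells (adjusted p = 0.0349), both called, and -0.63 in WT cells (adjusted p = 0.0532), not called. The KO call was lost without KO control b, KO dox a or KO dox b (adjusted p = 0.0597 to 0.0896), and the OE call without any 1 of the 4 OE libraries (adjusted p = 0.0583 to 0.156). The WT difference was called under 5 alternatives, which were median-ratio scaling (-0.80, adjusted p = 0.00452, limma), no small RNAs (adjusted p = 0.0153), voom (adjusted p = 0.0159), the replicate block (adjusted p = 0.0305) and a minimum mean of 5 TPM (adjusted p = 0.0441).

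DCTPP1, the dCTP pyrophosphatase, was measured at 83.2 and 64.7 TPM in KO dox, 79.0 and 55.9 TPM in OE dox and 80.8 and 70.5 TPM in WT dox, against 29.3 and 26.6 TPM in KO control, 25.02 and 25.6 TPM in OE control and 25.4 and 26.3 TPM in WT control. The control libraries lay close together and all doxorubicin libraries lay above them. The mean difference was 1.41 ± 0.13 (adjusted p = 2.74e-06, limma), with 1.36 in KO, 1.36 in OE and 1.51 in WT cells, all called. Of its exon bases 42.1% are shared with the antisense gene ZNF771, which was listed at 0.438 to 1.27 TPM. Other members share exon bases too, RRM2 (20.2%) with AC007240.1, not listed, and DCK (6.17%) with MOB1B, listed at 7.73 to 18.2 TPM. Both of these lie on the member's own strand, so stranded reads cannot keep them apart. DUT (14.5%), SAMHD1 (10.3%) and RRM1 (1.51%) share theirs with antisense genes that were not listed.

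SAMHD1, the dNTP hydrolase, was measured at 16.5 and 18.6 TPM in KO dox, 16.2 and 10.4 TPM in OE dox and 14.7 and 11.99 TPM in WT dox, against 13.4 and 8.73 TPM in KO control, 9.91 and 7.76 TPM in OE control and 6.28 and 6.11 TPM in WT control. Within each kind of cells the doxorubicin libraries lay above the control libraries, and across kinds KO control a lay among the doxorubicin libraries. The mean difference was 0.72 ± 0.16 (adjusted p = 0.00195, limma). Within WT cells it was 0.99 and called (adjusted p = 0.0168), and leaving out any 1 of the 4 WT libraries ended that call (adjusted p = 0.0513 to 0.114). The differences of 0.65 in KO (adjusted p = 0.104) and 0.52 in OE cells (adjusted p = 0.183) were not called. The ratio of SAMHD1 to RRM2 TPM had a median of 11.4 with doxorubicin (lowest 2.65, highest 23.3) and of 0.297 in control (lowest 0.256, highest 1.46). Its log2 difference was 3.58 (adjusted p = 0.0123, exact permutation test as above). This p too was fixed by the levels, as SAMHD1 was higher and RRM2 lower without overlap within each kind of cells.

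**Figure D3:**
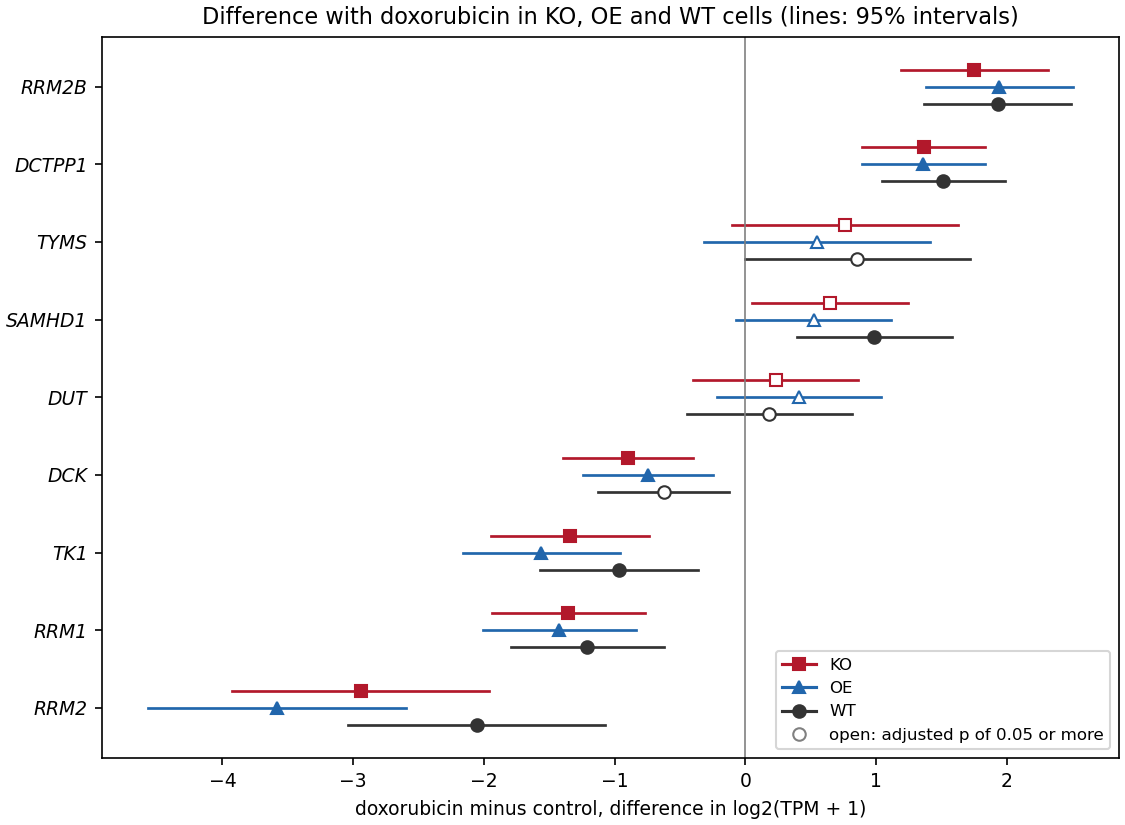
Difference in log2(TPM + 1), doxorubicin minus control, for the 9 genes in KO (red squares), OE (blue triangles) and WT cells (grey circles), with 95% intervals from limma as lines. Filled points had an adjusted p under 0.05. RRM2 lies at -2.94, -3.58 and -2.05 and RRM2B at 1.75, 1.94 and 1.93 in KO, OE and WT cells.

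Counted within kinds of cells, 2 members were called higher and 4 lower in KO cells (9.90% and 14.3% of all genes), 2 higher and 4 lower in OE cells (12.4% and 10.6%) and 3 higher and 3 lower in WT cells (19.6% and 12.6%). The balance over all genes depended on the scaling: in KO cells 1510 genes were called higher and 2185 lower, against 3283 higher and 2370 lower without small RNAs and 2876 higher and 2491 lower with voom. Without small RNAs 3840 were called higher and 2160 lower in OE cells, against 1895 and 1615 in the fit with them, and with median-ratio scaling 3502 higher and 3420 lower in WT cells, against 2994 and 1920 in the fit as described. RRM2B and DCTPP1 were higher, and RRM1, RRM2 and TK1 lower, in all 3. The groups did not overlap for 7 members in KO, 9 in OE and 8 in WT cells, against 62.1%, 61.2% and 72.5% of all genes. The 3 kinds of cells have separate controls, so the differences share no library, but their tests take the spread from the same fit over all 12 libraries. Over genes, the deviation of replicate a from its group mean correlated at 0.81 between KO dox and OE dox and 0.50 between KO control and OE control.

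The order of the levels also differed between the media. Per length, RRM2B (160 TPM) and DCTPP1 (72.4 TPM) were the highest members with doxorubicin, each without overlap with the next, and then came SAMHD1 (14.7 TPM), TK1 (14.6 TPM), RRM1 (12.6 TPM), TYMS (12.1 TPM), DCK (6.23 TPM), DUT (5.30 TPM) and RRM2 (2.41 TPM). Neighbours from SAMHD1 down overlapped in their libraries. In control the order of mean levels was RRM2B (42.2 TPM), TK1 (36.6 TPM), RRM1 (32.6 TPM), DCTPP1 (26.4 TPM), RRM2 (21.6 TPM), DCK (11.2 TPM), SAMHD1 (8.69 TPM), TYMS (6.85 TPM) and DUT (4.21 TPM), and all neighbours overlapped. RRM2B made up 52.99% of the summed TPM of the 9 members with doxorubicin and 22.2% in control, and RRM2 0.788% with doxorubicin and 11.2% in control. The TPM values of RRM2 and SAMHD1 fitted whole reads at lengths of 4955 and 5038 bases, against 5323 and 11261 exon bases in GENCODE v29, so a level set beside another gene depends on the annotation the authors used.

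KO and OE cells were compared with WT cells in each medium, and these comparisons share the WT libraries. SPARCLE RNA was nearly absent from KO and WT libraries alike, so KO against WT cannot show what loss of SPARCLE RNA changed. No member was called in any of these 4 comparisons or in the 2 tests of whether the doxorubicin difference itself differed from that in WT cells (limma, smallest adjusted p = 0.277). The voom test on recovered reads called none either. At an unadjusted p under 0.05 there was 1 member each in KO against WT in control (SAMHD1), KO against WT with doxorubicin (RRM2), OE against WT with doxorubicin (RRM2) and the OE difference of differences (RRM2), and 0 in OE against WT in control and in the KO difference of differences. Few genes were called at all: 0.0918% of all genes in KO against WT and 0.118% in OE against WT in control, 0.295% and 0.315% with doxorubicin, and 0.00655% in either difference of differences.

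RRM2 with doxorubicin held the widest of these differences. Its mean level was 0.306 times that of WT dox in KO dox and 0.166 times in OE dox, where neither group overlapped WT dox. The differences were -1.31 (95% interval -2.29 to -0.32, adjusted p = 0.805, limma) and -1.70 (95% interval -2.68 to -0.72, adjusted p = 0.277). When the fit held only OE dox and WT dox, the difference of -1.70 was called (adjusted p = 0.00161, limma), and over all alternatives for OE it ranged between -2.46 and -1.55 with adjusted p between 0.00161 and 1.00. The doxorubicin difference in KO cells minus that in WT cells was -0.89 (95% interval -2.28 to 0.51, adjusted p = 1.00, limma), and that in OE cells minus that in WT cells was -1.53 (95% interval -2.92 to -0.13, adjusted p = 1.00). Over the alternatives the KO value with doxorubicin ranged between -1.90 and -0.83, with -0.83 without KO dox a. The KO difference of differences ranged between -1.73 without KO control a and -0.0428 without KO control b. In control RRM2 differed by -0.42 in KO and -0.17 in OE cells from WT cells, and the sign of the KO value turned when KO control a was left out (0.42).

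With doxorubicin the other members lay closer to WT than RRM2 did, and in control SAMHD1 and TYMS lay farther from WT than RRM2 in both KO (0.72 and -0.55) and OE cells (0.44 and -0.42), none of them called. In control, KO and WT libraries did not overlap for 3 of 9 members (DCK, SAMHD1 and DCTPP1, all higher in KO), against 39.0% of all genes (33.6% higher), and OE and WT libraries for 5 (SAMHD1 higher in OE, and RRM1, RRM2B, DUT and DCK lower in OE), against 37.4%. With doxorubicin KO and WT did not overlap for 2 (SAMHD1 higher and RRM2 lower in KO), against 24.1%, and OE and WT for 5 (RRM1, RRM2, RRM2B, TYMS and TK1, all lower in OE), against 26.2% (20.5% lower). The median of all genes was itself -0.12 in OE against WT with doxorubicin and 0.20 in KO against WT in control. SAMHD1 in control differed from WT by 0.72 in KO (95% interval 0.12 to 1.31) and 0.44 in OE cells (-0.15 to 1.04). These intervals are wide, and they include differences as large as the doxorubicin effect on SAMHD1.

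The genes whose profile over the 12 libraries lay closest to that of RRM2, among 8419 protein-coding genes with a mean of at least 5 TPM, were TOP2A, PBK and CDK1. Likeness was the mean absolute difference between log2 profiles, after subtracting each library's median over the genes tested and then each gene's mean. It was 0.37 for TOP2A and PBK and 0.38 for CDK1, against a median of 1.48 over the candidates. TOP2A encodes topoisomerase II alpha, the target of doxorubicin in dividing cells, CDK1 the kinase that drives mitosis and PBK a mitotic kinase. TOP2A was measured at 1.95 and 2.02 TPM in KO dox, 1.96 and 1.36 TPM in OE dox and 4.77 and 3.23 TPM in WT dox, against 18.0 and 44.9 TPM in KO control, 25.1 and 30.2 TPM in OE control and 48.4 and 54.3 TPM in WT control. Like RRM2, it was lowest among the controls in KO control a and higher in WT dox than in the other doxorubicin libraries.

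Closest to RRM2B were RPS27L (0.14), a p53 target, and ACTA2 (0.14), smooth muscle actin, against a median of 0.89. Among the members themselves RRM1 and TK1 were the closest pair (0.19) and RRM2B and DCTPP1 the next (0.24), and RRM2 and RRM2B were farthest apart (2.37). These distances have no test, and the 12 libraries share depth and scaling within each library.

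The wider lists place the members among other genes of nucleotide metabolism. Among 12 genes of de novo purine synthesis 6 were called higher and 2 lower in the mean doxorubicin comparison, where 32.2% of all genes were called higher and 25.9% lower, the background for each of these lists. ADSL (1.22) and ADSS (1.13), which act on adenylosuccinate, and GART (0.59), a trifunctional enzyme of the early pathway, were higher, and PRPS1 (-0.65) and PRPS2 (-0.59), which make the activated ribose phosphate, were lower. Among 5 genes of de novo pyrimidine synthesis 4 were called higher and 0 lower, among them CTPS1 (1.05) and CTPS2 (0.82), the CTP synthases, and UMPS (0.99), which makes UMP. Within kinds of cells, 2 purine genes were called higher and 1 lower in KO (9.90% and 14.3% of all genes). In OE cells 2 were called higher and 1 lower (12.4% and 10.6% of all genes), and in WT cells 5 higher and 0 lower (19.6% and 12.6%). Of the pyrimidine genes 1 was called higher in KO, 2 in OE and 4 in WT cells, and 0 lower in each, beside the same shares of all genes. The median difference was 0.48 for the purine and 0.82 for the pyrimidine list, beside 0.09 for all genes.

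Of 7 folate cycle genes 1 was called higher, MTHFD1 (0.39), and 2 lower, among them SHMT2 (-0.36), the mitochondrial serine hydroxymethyltransferase. Of 14 kinases and deaminases 6 were called higher and 2 lower. TK2 (1.23), the mitochondrial thymidine kinase, was higher while TK1, the cytosolic one, was lower, and ADK (0.83), adenosine kinase, was also higher. GUK1 (-0.99), guanylate kinase, was lower. NME1 (1.83) and NME2 (-0.54), nucleoside diphosphate kinases, were called in opposite directions, but they are near-identical paralogs whose reads the authors' counting may have split, so both values are uncertain.

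Of 10 salvage and breakdown genes 4 were called higher and 3 lower, and TYMP (1.96), thymidine phosphorylase, was higher while DPYD (-1.30), which degrades uracil and thymine, HPRT1 (-0.51), which salvages hypoxanthine, and NT5M (-0.79), a mitochondrial deoxynucleotidase, were lower. APRT (0.71), which salvages adenine, and NT5C2 (0.48), a cytosolic nucleotidase, were higher. Of 6 genes that clean the nucleotide pool 3 were called higher and 2 lower. ITPA (2.44), which hydrolyses inosine triphosphates, NUDT5 (1.07) and NUDT18 (1.12) were higher, as DCTPP1 was, and NUDT1 (-0.75), which removes oxidised dGTP, was lower. Of 4 nucleoside transport genes tested 2 were called higher, SLC29A1 (1.50) and SLC29A2 (0.74), the equilibrative nucleoside carriers, and 1 lower, the mitochondrial carrier SLC25A36 (-0.52). SLC28A3 was not among the genes tested.

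**Figure D4:**
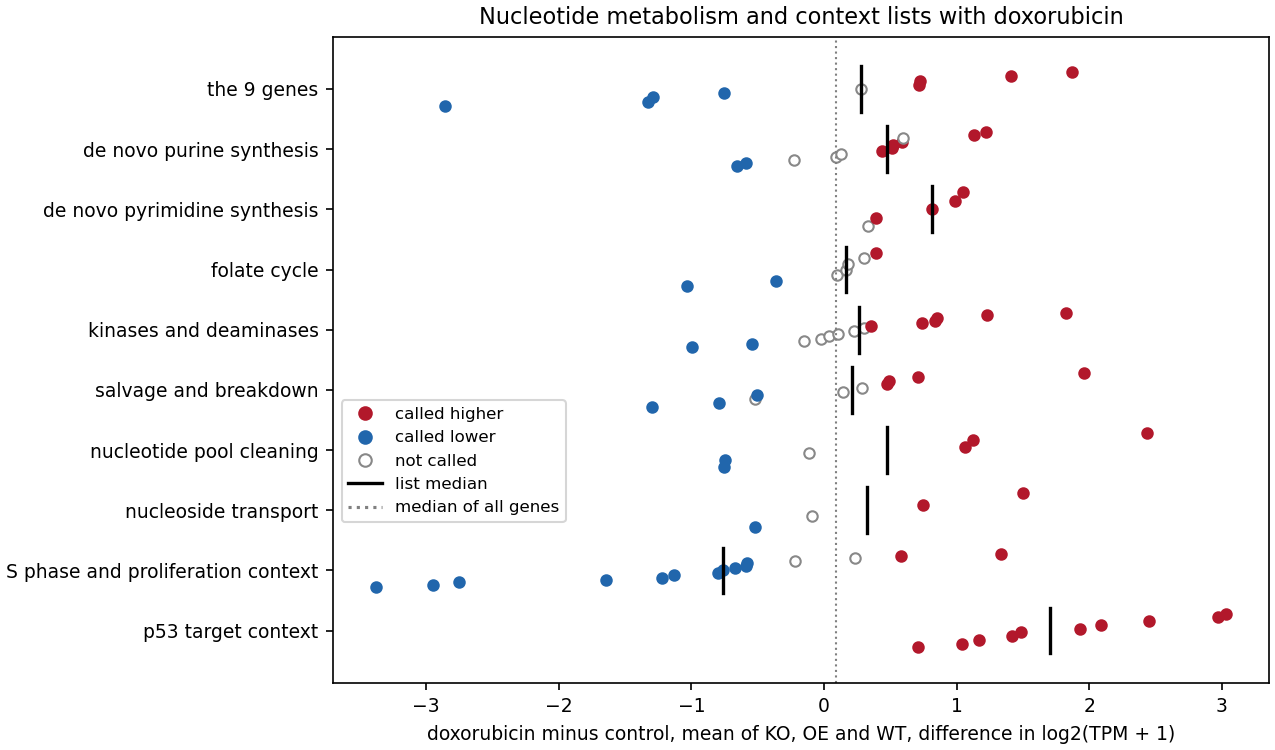
Difference in log2(TPM + 1), doxorubicin minus control, in the mean of KO, OE and WT, for the 9 genes and the wider lists. Each point is a gene (red called higher, blue called lower, open not called), black bars are list medians and the dotted line is the median of all genes (0.09). All 5 de novo pyrimidine genes lie above that line, and the S phase and proliferation list has a median of -0.76.

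Genes of S phase and of the p53 response were read beside the members in the same libraries. Of 15 genes of S phase and proliferation 11 were called lower and 2 higher in the mean comparison, with a median of -0.76. TOP2A (-3.38), MKI67 (-2.95), the proliferation antigen, and CCNA2 (-2.76), cyclin A2, were lower. PCNA (1.34), the sliding clamp, which p53 is also known to induce, and MCM3 (0.58), a subunit of the replicative helicase, were higher. All 10 p53 targets were called higher, with CDKN1A (2.98), which arrests the cell cycle, MDM2 (3.03), which degrades p53, and TIGAR (2.45), which slows glycolysis. The p53 list summed to 1052 to 2439 TPM with doxorubicin and 236 to 369 TPM in control. In KO dox it summed to 2362 TPM in replicate a and 1052 TPM in replicate b, and in OE dox to 2439 TPM in a and 1112 TPM in b. The contrast was not limited to p53 targets. The S phase list summed to 470 TPM in a and 210 TPM in b in KO dox, and to 382 and 195 TPM in OE dox. These sums overlapped those in control, where the highest was 333 TPM, in WT control b. PCNA, at a mean of 265 TPM in KO dox, was the highest gene of that list. The median log2 level also stood higher in a, at 0.27 against -0.05 from the average library in KO dox and 0.25 against -0.28 in OE dox. RRM1, RRM2B, TYMS, TK1, DUT and DCTPP1 stood higher in a than in b in both groups too. The part of this difference between replicates in the values of the members was not tested.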

How the data were processed

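Values were deposited by the authors as log2 TPM per gene, per the file headers, and were turned back into TPM. Tools named without order in the submitters' processing notes are featureCounts, edgeR 3.12.1, HISAT2 2.0.4, R 3.3.3 and SAMtools 1.7, with the build hg38. The annotation, filter and strand setting are not given in the sources used here. Groups come from the sample titles. GENCODE v29 named 16564 of 16676 genes.

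Genes at 1 TPM or more in at least 2 libraries (15256) were fitted as 6 group means on log2(TPM + 1) with limma 3.58.1 (R 4.3.3), with a trend and Benjamini-Hochberg adjustment. The step was tested on simulated data. Whole reads were recovered from TPM at GENCODE lengths for 91.7% of named genes (tolerance 0.05 reads). Ratios were tested by exact permutation.

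The members and lists were chosen with earlier results of these data known. Besides members, up to 3 called genes per wider list and direction with the smallest adjusted p (mean and WT doxorubicin comparisons) and the 3 genes nearest RRM2 and RRM2B are named. A few genes these rules pick are not reported here. The main fit did not use the letters. Same-lettered replicates correlated above 0.1 in 8 of 15 group pairs (-0.39 to 0.81), most between KO dox and OE dox, so these libraries may not be independent. Alternatives were another pseudocount, other filters, median-ratio scaling, small RNAs left out, a replicate block, voom, only the groups compared and leaving out each library.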

Additional observations from a re-analysis of the deposited data

How the results depend on the processing

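Over the alternatives, 1110 of 1205 values of the 9 genes kept their direction and their side of the threshold, 19 lost a call, 11 gained one and 65 changed sign, none of the last from a called difference. The mean doxorubicin calls of RRM1, RRM2, RRM2B, TK1, DCK, SAMHD1 and DCTPP1 held under all 19 alternatives, and the RRM2 difference ranged between -3.53 and -2.58. The difference of DUT was called with small RNAs left out (0.40, adjusted p = 0.0351, limma), that of SAMHD1 in KO cells under median-ratio scaling, without small RNAs and with voom (adjusted p = 0.0196 to 0.0204, limma), and that of TYMS in WT cells in a fit of only the WT groups (adjusted p = 0.00583, limma). In separate fits of only the KO groups and only the OE groups the DCK calls were lost (adjusted p = 0.0619 in KO and 0.154 in OE cells, limma). The 3 ratio calls held throughout, those of RRM2B to RRM2 and SAMHD1 to RRM2 being fixed by the levels. The cause was not tested.

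The letters a and b as a replicate block gave 35 genes called in KO against WT in control, where the fit without the block called 14, and 75 with doxorubicin, where it called 45. The block called DCK in WT cells (adjusted p = 0.0305, limma) and changed no other member's call.

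Counts of genes called moved as follows. For doxorubicin in KO cells, 3695 in the fit as described became 2353 at a mean of at least 5 TPM, 5736 with median-ratio scaling, 5653 without small RNAs and 2431 with only the groups compared, and 1167 to 3202 with 1 library left out. In OE cells 3510 became 2316 at the stricter filter, 5940 with median-ratio scaling, 6000 without small RNAs and 5454 with voom, and 944 to 3787 with 1 library left out. In WT cells 4914 became 1820 to 3726 with 1 library left out, and for the mean comparison 8850 became 5434 at the stricter filter.

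For KO against WT in control the 14 genes called became 26 with a pseudocount of 0.1, 23 with no filter, 6 at the stricter filter, 27 with median-ratio scaling, 34 without small RNAs, 3 with only the groups compared, and 7 to 13 with 1 library left out. For OE against WT in control 18 became 8 at the stricter filter, 42 with median-ratio scaling, 30 without small RNAs, and 5 to 15 with 1 library left out. With doxorubicin the 45 in KO against WT became 13 at the stricter filter, 76 without small RNAs, 72 with voom, and 9 to 32 with 1 library left out, and the 48 in OE against WT became 17, 90 and 82 under the same alternatives, 82 with median-ratio scaling, 129 with only the groups compared, and 12 to 22 with 1 library left out. The 1 gene in each difference of differences became 0 with a pseudocount of 0.1, at the stricter filter and with voom, 6 for OE with only the groups compared, and 1 to 3 for KO with 1 library left out.

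Signs of small, uncalled differences turned with the scaling. Under median-ratio scaling DCTPP1 was at -0.105 in KO against WT in control and 0.0276 in OE against WT in control. In OE against WT with doxorubicin DUT was at 0.11 and SAMHD1 at 0.13, and in the KO difference of differences RRM1 was at 0.0717, RRM2B at 0.0436, TYMS at 0.0921 and DCTPP1 at 0.0692. Without small RNAs, KO against WT with doxorubicin had DUT at 0.0263, DCK at 0.0155 and DCTPP1 at 0.0114, OE against WT with doxorubicin had DUT at 0.14, SAMHD1 at 0.15 and DCTPP1 at 0.000729, OE against WT in control had DCTPP1 at 0.0809, and the KO difference of differences had TYMS at 0.0487. With voom DCTPP1 was at 0.0696 in OE against WT in control, and DUT at 0.11 and SAMHD1 at 0.11 in OE against WT with doxorubicin.

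With 1 library left out, uncalled differences crossed 0 as follows. DUT ranged from -0.0119 to 0.381 for doxorubicin in WT and from -0.0394 to 0.503 in KO cells. In KO against WT in control RRM1 ranged from -0.29 to 0.22, RRM2 from -1.27 to 0.42, RRM2B from -0.0904 to 0.0721, TK1 from -0.31 to 0.29 and DUT from -0.34 to 0.20. In OE against WT in control TK1 ranged from -0.24 to 0.37, TYMS from -0.873 to 0.0343 and RRM2 from -0.395 to 0.0482. In KO against WT with doxorubicin DUT ranged from -0.22 to 0.18, DCK from -0.21 to 0.14, DCTPP1 from -0.22 to 0.14, RRM1 from -0.406 to 0.0468 and RRM2B from -0.59 to 0.22. In OE against WT with doxorubicin DUT ranged from -0.23 to 0.18, SAMHD1 from -0.32 to 0.27 and DCTPP1 from -0.426 to 0.0649. In the KO difference of differences TYMS ranged from -0.56 to 0.37, DUT from -0.22 to 0.32, RRM1 from -0.40 to 0.11, RRM2B from -0.58 to 0.23 and DCTPP1 from -0.328 to 0.0305. In that of OE TYMS ranged from -0.76 to 0.14, RRM2B from -0.26 to 0.28, DCK from -0.295 to 0.0557, RRM1 from -0.56 to 0.13 and DCTPP1 from -0.398 to 0.0922.

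With 2 libraries a group, a fit without 1 library takes the lone sample to vary like the other groups. Depth limits RRM2 most, with 64 to 436 reads in the doxorubicin libraries. TPM is a share of the library, so no absolute amount of RNA was measured.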
